A study of Saccharomyces cerevisiae with 4 samples.

Results

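The genes described here form a contiguous stretch of the left arm of chromosome XV of Saccharomyces cerevisiae, from YOL087C on the telomere side to YOL019W on the centromere side. Numbers in systematic names of a left arm rise from the centromere to the telomere, so the names give the order along the chromosome. Of 71 gene probes with YOL numbers 019 to 087, 9 were left out beforehand (ADH1, ATG34, ATG19, ATP19, ARG1, DDR2, RPS15, PRE6 and TAT2), and the remaining 62 of the 6256 gene probes on the arrays are the members. The stretch was chosen by the D10 Small over pool ratios of these same arrays, so the height and the edges of its ratios are descriptions and carry no test. RNA was compared between the translocant strain D10 Small, in 4 biological replicates labelled with Cy3, and a pool of its parental strain WT San I, labelled with Cy5 and hybridised against each replicate. Cultures of both strains in YPD, which is rich in peptides and glucose, were harvested at an optical density between 0.4 and 0.5, and those of D10 Small alone contained kanamycin at 200 mkg/ml. Strain and drug therefore cannot be told apart, nor can a difference between strains and a dye effect of a probe, since the dyes were never swapped. The pool is 1 control sample, and its own spread is part of no error given here. All ratios are D10 Small over the WT San I pool on the log2 scale, with mean ± SD over the 4 arrays (n = 4), so that 1 is a 2-fold higher level in D10 Small.

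A translocant carries a chromosome in which parts of different chromosomes have been joined. As background from published work on translocants of this parental strain, which the labels do not state, these were made by bridging the DUR3 locus of VIII left and the ADH1 locus of XV left with a selectable cassette, and ADH1, the main fermentative alcohol dehydrogenase, lies next to the telomere-side end of the stretch. In yeast strains with extra or missing chromosome segments, transcript levels of most genes are known to follow their number of copies. The arrays measured RNA, and the copy number of the stretch was not analysed here. The members are ordinary neighbours on a chromosome with unrelated tasks: among them are genes for a glucan-remodelling enzyme of the cell wall, a subunit of the kinetochore, a nuclease of the exosome, a tRNA synthetase of mitochondria and a negative regulator of Ras.

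The arrays carried 7 spots per gene probe. By array, the median raw intensity of a gene spot ranged from 304 to 444 for D10 Small and from 120.4 to 261 for the pool, and array 1 was the brightest in both channels. Pearson's r between the ratios of any pair of arrays was 0.960 to 0.985 across the 56 tested members and 0.975 to 0.990 across all tested genes, which are not independent replicates. A gene was tested where its probe exceeded the negative controls in either channel on at least 3 arrays. That left 56 members, and all 56 were above background in both channels on all 4 arrays, so none entered through the brighter strain alone.

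Transcripts of nearly the whole stretch were more abundant in D10 Small. Of the 56 tested members, 53 were higher in D10 Small by limma at an adjusted p under 0.05, YOL057W was lower, and DSC2 and MDM20 did not pass. Over all 5794 tested genes 43.2% were called higher and 39.6% lower. At least 2-fold higher were 17 members, against 6.20% of all tested genes, and 0 members were at least 2-fold lower, against 3.05%. Positive ratios on all 4 arrays were seen for 53 members and for 45.4% of all tested genes. The median ratio of the members was 0.78, a 1.72-fold higher level, with quartiles of 0.47 and 1.05. Its values on the 4 arrays were 0.85, 0.81, 0.77 and 0.75, and the median over all tested genes was 0.021. All 4 arrays placed the stretch median well above that of all genes. The members nevertheless differed among themselves: their ratios had an SD of 0.45, while the SD of a member over the 4 arrays had a median of 0.086.

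**Figure D1:**
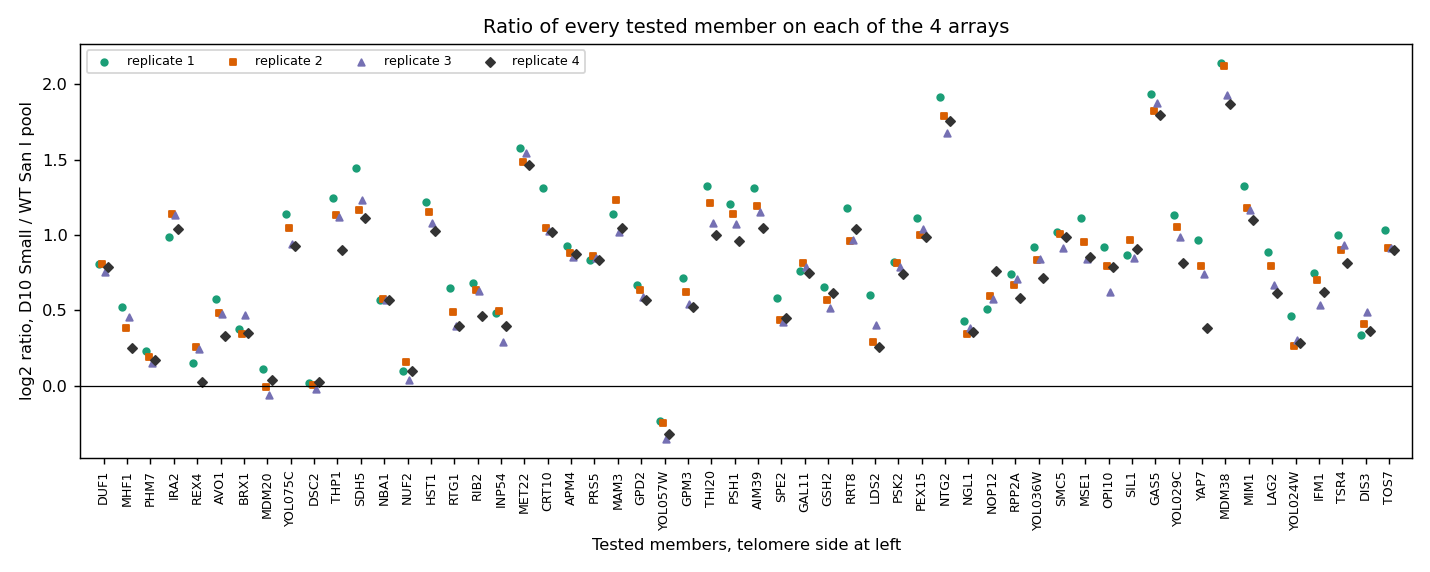
The log2 ratio of D10 Small over the WT San I pool is plotted for each of the 56 tested members in order along the arm, with 1 point per array. The points of a gene lie close together beside the differences between genes, MDM38, GAS5 and NTG2 stand highest, and YOL057W alone lies below 0 on all 4 arrays.

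The interquartile range of the ratios was 0.58 over the tested members and 0.62 over all tested genes. The SD was 0.45 over the tested members and 0.65 over all tested genes. Ratios from 0.5 to 1.3 were found for 36 members, 4 lay above 1.3, 10 lay between 0.25 and 0.5, and 6 lay under 0.25. A ratio of at least 0.5 was reached by 40 of the 56 members and by 18.0% of all tested genes. Array 1 gave the highest ratio for 43 of the 56 members, and likewise for 673 of 1003 genes outside the stretch with a ratio of at least 0.5. The part of array brightness in this was not tested.

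At both ends the ratio stepped between adjacent genes, which the choice of the limits by these same ratios builds in. Differences between adjacent tested members inside the stretch reached 1.41. At the telomere-side end, DUF1 (YOL087C), a ubiquitin-binding protein, had ratios of 0.81, 0.81, 0.76 and 0.78 on the 4 arrays. Its outer neighbour MPD2 (YOL088C), a protein disulfide isomerase of the endoplasmic reticulum, had -0.10, -0.016, -0.074 and -0.064. The arrays did not overlap between these neighbours, and DUF1 exceeded MPD2 by 0.85 ± 0.039. The next gene outward, HAL9, a transcription factor of salt tolerance, had 0.061 ± 0.087. Inward, MHF1 (YOL086W-A), a histone-fold protein of the kinetochore and of DNA repair, had 0.52, 0.38, 0.45 and 0.25 on the 4 arrays, and the left-out ADH1 had 0.81 ± 0.080. All these genes were above background in both channels on all arrays.

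At the centromere-side end, TOS7 (YOL019W), a membrane protein linked to secretion, had ratios of 1.03, 0.91, 0.92 and 0.90. TLG2 (YOL018C), a SNARE protein of the endosome just outside, had 0.26, 0.047, -0.0029 and 0.014. Every array again separated the pair, with a difference of 0.86 ± 0.061. Further out, ESC8, a silencing protein, was also higher with 0.56 ± 0.031, while CMK2, a calmodulin-dependent kinase, had -0.083 ± 0.089. The 2 inner neighbours of TOS7, the left-out tryptophan permease TAT2 and the exosome nuclease DIS3, had 1.41 ± 0.10 and 0.40 ± 0.066.

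Over 10 tested genes on either side, the medians stepped from 0.0056 outside to 0.57 inside at the telomere-side end and from 0.83 inside to 0.088 outside at the centromere-side end. The step was 0.60 ± 0.10 at the first end and 0.77 ± 0.040 at the second. Because these steps chose the limits of the stretch, they describe it and support nothing.

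**Figure D2:**
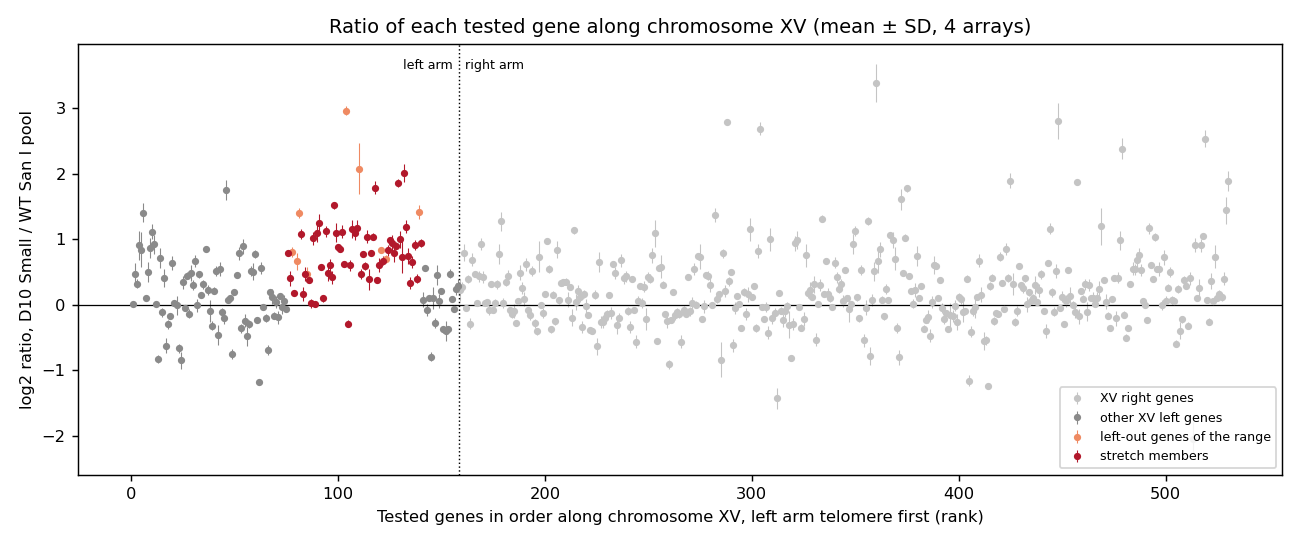
The log2 ratio of every tested gene of chromosome XV is plotted in gene order from the left telomere, with SD over the 4 arrays as bars. Stretch members, with a median of 0.78, and the left-out genes of the same range, with a median of 0.83, stand above the genes on either side, which scatter on both sides of 0.

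The remaining genes of the chromosome had other levels. On XV left, the 75 tested genes from YOL088 to the telomere had a median ratio of 0.11, with 39 higher and 23 lower. The 18 tested genes from YOL018 to the centromere had a median of 0.086, with 8 higher and 5 lower. On XV right the median of 372 genes was 0.11, with 203 higher and 106 lower. Of the 465 tested XV genes outside the range, 53.8% were higher and 28.8% lower, against 43.2% and 39.6% over all tested genes. The 9 left-out genes inside the range all passed as higher, with ratios from 0.46 to 2.96 and a median of 0.83. The median of the members exceeded that of the other 465 tested XV genes by 0.67.

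**Figure D3:**
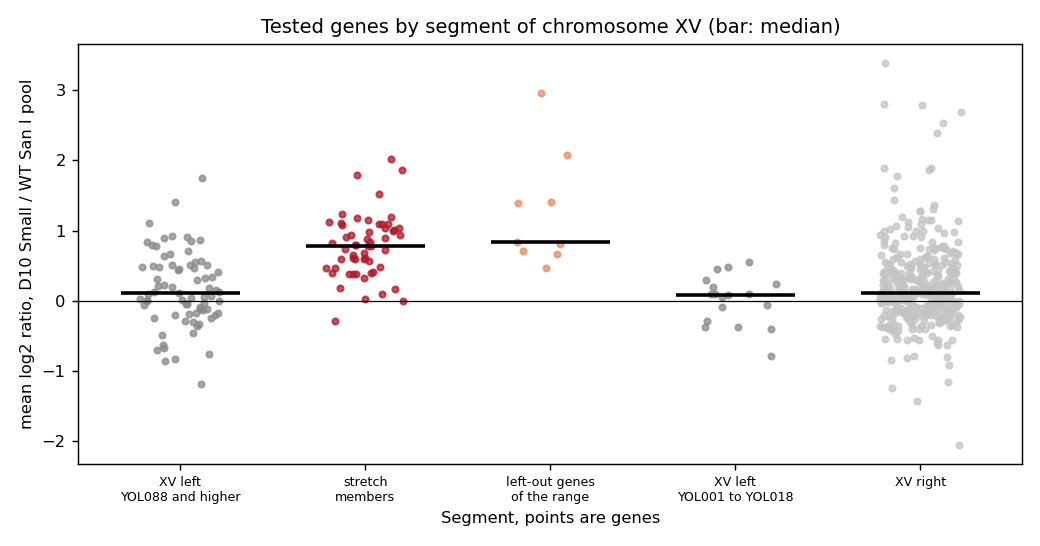
Mean log2 ratios of single tested genes are shown by segment of chromosome XV, with the median of each segment as a bar. The medians are 0.78 for the stretch and 0.83 for the left-out genes of its range, against 0.11, 0.086 and 0.11 for the telomere-side genes, the centromere-side genes and the right arm.

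Along the arm, 5 of the 6 lowest members lay in the telomere-side part. Split into 3 runs, the members from DUF1 to MET22 had a median of 0.48 with 17 of 19 tested genes higher. From CRT10 to NTG2 the median was 0.86 with 17 of 18 higher, and from NGL1 to TOS7 it was 0.83 with 19 of 19 higher. The 5 members PHM7, REX4, MDM20, DSC2 and NUF2 with ratios between 0 and 0.25 all lie in the first run. Of the 6 members with dim pool signals described below, MHF1, PHM7, DSC2 and RTG1 lie in that run. LDS2 and YOL024W lie in the later runs. The part of brightness in the lower ratios of the first run was not tested. Inside the stretch, the median absolute difference in ratio was 0.41 over the 55 pairs of adjacent tested members and 0.41 over all 1540 pairs. Members on the W strand had a median of 0.78 over 29 genes and those on the C strand 0.89 over 27.

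All 7 members for mitochondrial proteins were higher, and 4 of them at least 2-fold, with a median of 1.18. Over the stretch 53 of 56 tested members were higher and 17 at least 2-fold, against 43.2% and 6.20% of all tested genes. The counts of this and the following groups are to be read beside these shares. MDM38, an inner membrane protein that takes part in ion homeostasis and in the insertion of newly made mitochondrial proteins, was the highest member, with ratios of 2.14, 2.12, 1.92 and 1.87. Its net spot intensity, before normalisation, was 8956, 8262, 7237 and 5664 for D10 Small and 2207, 1494, 1302 and 1071 for the pool. These intensities show how bright the probe was and not its ratio, since the median gene spot too was brighter in D10 Small on every array. The mean of 2.01 ± 0.14 is a 4.04-fold higher level. SDH5, an assembly factor that helps attach flavin to succinate dehydrogenase, had 1.44, 1.17, 1.23 and 1.11, and its mean of 1.24 became 1.94 with plain subtraction and a floor of 10 and 1.95 with the scanner's net ratio. For MIM1, which inserts proteins into the outer membrane, the 4 values were 1.32, 1.18, 1.17 and 1.10. AIM39, a mitochondrial protein of unknown function, reached 1.31, 1.19, 1.15 and 1.05. Each of these genes was positive on every array and stayed above the stretch median of 0.78. MSE1, the mitochondrial glutamyl-tRNA synthetase, had 0.94 ± 0.12, and IFM1, the mitochondrial translation initiation factor 2, had 0.65 ± 0.093. IFM1 ranged from 1.00 to 1.21 without background correction, with the floor, in the authors' deposited ratios and with the scanner's net ratio. NGL1, a nuclease-like protein found with mitochondria, was the lowest of the group with 0.43, 0.34, 0.38 and 0.36, and its mean of 0.38 became 0.62 with median centring.

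Members acting on chromosomes, DNA repair and silencing were all higher too, 7 of 7 with 4 at least 2-fold, with a median of 1.09, and they spanned a wide range. NTG2, a glycosylase and lyase of base excision repair, had 1.92, 1.79, 1.68 and 1.76, a 3.45-fold higher level. HST1, a histone deacetylase related to SIR2 that represses middle sporulation genes, had 1.22, 1.15, 1.08 and 1.03. CRT10, a regulator of ribonucleotide reductase genes, had 1.31, 1.05, 1.02 and 1.02, and here array 1 stood clear of the other 3. PSH1, a ubiquitin ligase for the centromeric histone Cse4, had 1.09 ± 0.11, and SMC5, a subunit of the Smc5/6 complex that keeps chromosomes intact, had 0.98 ± 0.049. MHF1 had 0.40 ± 0.12. NUF2, a subunit of the Ndc80 complex that links kinetochores to microtubules, had only 0.10, 0.16, 0.037 and 0.10. It was positive on each array and its mean was 0.099 ± 0.050, which passed, though not on leaving out array 2 (0.079), leaving out array 4 (0.099), with the scanner's net ratio (0.069), with the loess curve fitted without the chromosome arms that had shifted (0.073), or against a minimum fold of 1.2. It had 0.22 with median centring.

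The 7 members for RNA and the ribosome were all higher, with 1 at least 2-fold and a median of 0.61. THP1, which couples transcription to mRNA export, led with 1.25, 1.13, 1.12 and 0.90. TSR4, needed for processing of the small ribosomal subunit RNA, had 1.00, 0.90, 0.93 and 0.81. For RPP2A, an acidic protein of the ribosomal stalk, the values were 0.74, 0.67, 0.71 and 0.58, all positive. NOP12, a nucleolar protein of 25S and 5.8S rRNA processing, had 0.61 ± 0.11. DIS3, the catalytic nuclease of the exosome, had 0.34, 0.41, 0.49 and 0.36. BRX1, an assembly factor of the large subunit, had 0.38 ± 0.059. With median centring RPP2A had 0.34, NOP12 0.32 and BRX1 0.11, and BRX1 no longer passed. REX4, a putative exonuclease of rRNA processing, was the lowest with 0.15, 0.26, 0.24 and 0.026. Its mean of 0.17 became 0.31 with median centring, and it did not pass with the scanner's net ratio (0.13) or against a minimum fold of 1.2. THP1 and TSR4 exceeded DIS3, BRX1 and REX4 on every array. These are the highest and lowest of the group by the same ratios, with RPP2A and NOP12 between them, so their separation describes that ranking only.

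Of 9 members coding for metabolic enzymes, 8 were higher, 2 of these at least 2-fold, and 1 was lower, with a median of 0.60. MET22, the phosphatase that removes the adenosine bisphosphate formed in sulfate assimilation, had 1.58, 1.49, 1.54 and 1.46, a 2.86-fold higher level. THI20, which phosphorylates the pyrimidine precursor of thiamine, had 1.32, 1.21, 1.08 and 1.00. PRS5, a subunit of phosphoribosyl pyrophosphate synthetase, had 0.83, 0.86, 0.85 and 0.84, which hardly varied between arrays. A narrow group followed, with GPD2, a glycerol-3-phosphate dehydrogenase induced without oxygen, at 0.62 ± 0.046, RIB2 of riboflavin synthesis at 0.60 ± 0.096, GPM3, a phosphoglycerate mutase homologue, at 0.60 ± 0.087, and the glutathione synthetase GSH2 at 0.59 ± 0.058. SPE2, the decarboxylase of S-adenosylmethionine for polyamine synthesis, had 0.47 ± 0.074. YOL057W, a dipeptidyl peptidase, was the exception of the stretch, with -0.23, -0.25, -0.35 and -0.32 on the 4 arrays. Its net intensity was 698, 579, 534 and 510 in D10 Small and 551, 335, 298 and 282 in the pool, well above background in both. All 4 ratios were negative, yet with median centring the mean was -0.075 in place of -0.29 and did not pass, and it did not pass against a minimum fold of 1.2 either.

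All 8 members for signalling, transcription and ubiquitin binding were higher, 1 of them at least 2-fold, with a median of 0.76 and quartiles of 0.66 and 0.79. IRA2, which switches Ras off by stimulating its GTPase activity, had 0.99, 1.14, 1.13 and 1.04. PSK2, a PAS-domain kinase of sugar and protein synthesis control, had 0.82, 0.82, 0.79 and 0.74. GAL11, a tail subunit of the Mediator coactivator, had 0.78 ± 0.029. LAG2, a negative regulator of the SCF ubiquitin ligase, had 0.74 ± 0.12, and from 1.11 to 1.14 with the floor, in the authors' deposited ratios and with the scanner's net ratio. YAP7, a basic leucine zipper transcription factor, had 0.97, 0.80, 0.74 and 0.38 and was low on array 4, which gave it the largest SD of all members. RTG1, a transcription factor of the retrograde response that answers to mitochondrial dysfunction, had 0.48 ± 0.12, and AVO1, a subunit of TOR complex 2, had 0.47 ± 0.10. The lowest of the group, AVO1, was still positive on all arrays.

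Among 12 members for membranes, trafficking, folding and the cell wall, 10 were higher, 5 of them at least 2-fold, and 2 did not pass, with a median of 0.89. GAS5, a glucanosyltransferase that remodels the beta-glucan of the wall, had 1.93, 1.82, 1.88 and 1.79. Its net intensity was 6885, 5617, 5138 and 4032 in D10 Small and 1843, 1078, 929 and 808 in the pool, a 3.62-fold higher level after normalisation. Both channels were far above background, and no array brought GAS5 under 1.79. MAM3, a vacuolar membrane protein of metal homeostasis, had 1.14, 1.23, 1.02 and 1.04. RRT8, which is found with lipid droplets and acts in spore wall formation, had 1.18, 0.96, 0.97 and 1.04. PEX15, a membrane protein of peroxisomes, had 1.04 ± 0.054, and YOL075C, a transporter of the ABC family, had 1.01 ± 0.099. SIL1, the nucleotide exchange factor of the Hsp70 Kar2, had 0.90 ± 0.052, APM4, the medium chain of the AP-2 adaptor, 0.89 ± 0.031, and OPI10 0.78 ± 0.12. INP54, a phosphatidylinositol bisphosphate phosphatase, had 0.42 ± 0.096, and PHM7, a membrane protein regulated by phosphate, had 0.23, 0.19, 0.15 and 0.17. The last 2 were under 0.5 but positive on all arrays. PHM7 did not pass with median centring (0.049) or against a minimum fold of 1.2, while it had 0.71 with plain subtraction and a floor.

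MDM20 and DSC2 completed that group near 0. MDM20, the auxiliary subunit of the N-terminal acetyltransferase NatB, had 0.11, -0.0055, -0.063 and 0.036, with net intensities of 599, 477, 407 and 371 in D10 Small and 336, 210, 187 and 159 in the pool. Its arrays fell on both sides of 0, and with median centring it had 0.26 and passed as higher. DSC2, a subunit of the Golgi Dsc ubiquitin ligase, had 0.017, 0.0024, -0.023 and 0.024, but its net intensity was only 43.4, 36, 34.1 and 29.6 in D10 Small and 14.3, 10.6, 8.08 and 5.52 in the pool. The direction of DSC2 depended on the processing, from -0.34 with the scanner's net ratio to 0.45 with plain subtraction and a floor. No direction is given for either gene.

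**Figure D4:**
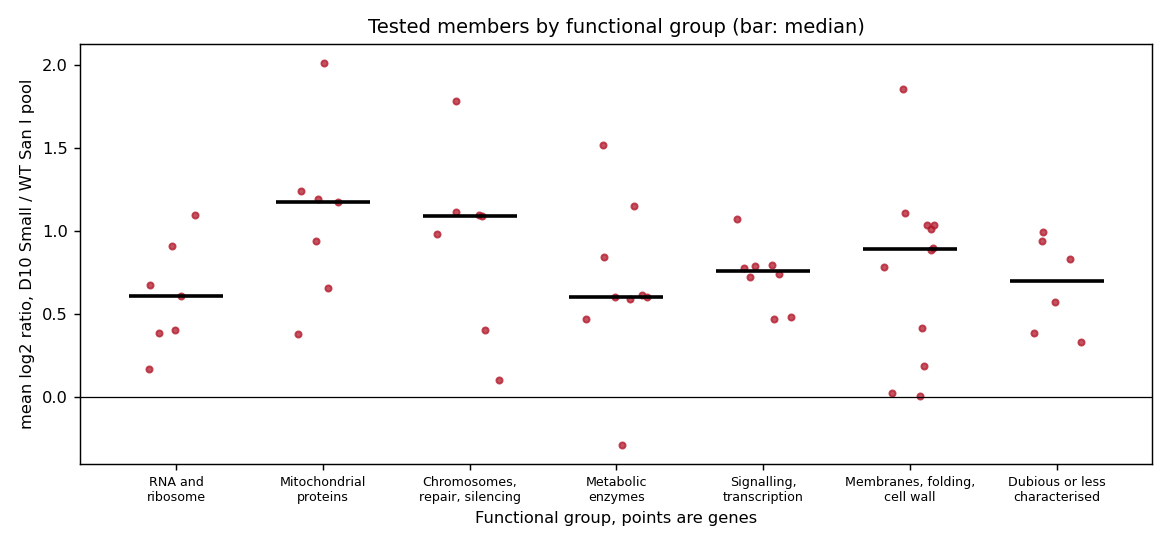
Mean log2 ratios of the 56 tested members are shown by functional group, with the group median as a bar. Medians run from 0.60 for metabolic enzymes to 1.18 for mitochondrial proteins, and each group holds members on both sides of the stretch median of 0.78.

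The group of dubious or less characterised reading frames had 12 members, 6 of them tested and all 6 higher, with a median of 0.70. YOL029C had 1.13, 1.05, 0.98 and 0.82, YOL036W had 0.92, 0.84, 0.84 and 0.72, and TOS7 is given above. NBA1, which acts at old sites of cell division against repeated budding there, had 0.57 ± 0.0038, with the smallest SD of all tested members. LDS2, a lipid droplet protein of the spore wall, had 0.39 ± 0.16, with 0.25 and no call with median centring and 1.52 with the scanner's net ratio. YOL024W had 0.47, 0.26, 0.30 and 0.29. Neither LDS2 nor YOL024W passed against a minimum fold of 1.2. The 6 members not tested, YOL085C, YOL079W, YOL050C, YOL046C, YOL037C and YOL035C, were above background in the pool on 0 arrays, and in D10 Small only YOL037C and YOL079W were, on 2 arrays and 1 array. Their ratios lay between -0.062 and 0.0082, which at that brightness measures no level.

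Some of the dimmest members had low ratios. The pool's net intensity stayed under 50, the offset added in background correction, on all 4 arrays for 6 tested members: MHF1, PHM7, DSC2, RTG1, LDS2 and YOL024W. All 6 had ratios under 0.5. Without background correction, MHF1 had 0.67, PHM7 0.35, RTG1 0.75, LDS2 0.86 and YOL024W 0.58, each over 1.5 times the value above, while DSC2 stayed at 0.031. By mean spot brightness, the dimmest 19 members had a median of 0.65, the middle 18 0.89 and the brightest 19 0.84. The pool's net intensity was above 50 on every array for REX4, MDM20 and YOL057W. It was above 50 on array 1 alone for SDH5, NUF2, LAG2 and IFM1, whose ratios were 1.24, 0.099, 0.74 and 0.65. With plain subtraction and a floor these 4 genes had 1.94, 0.16, 1.14 and 1.18. The part of brightness in the low ratios was not tested. The dimmest 19 held 4 members at least 2-fold higher, the middle 18 held 6 and the brightest 19 held 7.

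Relatives of the members elsewhere in the genome had ratios of either sign. Because the members were chosen from a stretch of high ratios on these arrays, a member above its relative follows largely from that choice, and the pairs are given as a description. For 13 pairs of a member and a paralog or family member on another chromosome, the member was the higher in 12, on all 4 arrays in each of the 12, with a median difference of 1.16. The relatives themselves were higher in 7 cases, lower in 5 and did not pass in 1, with a median ratio of 0.12. Over all tested genes 43.2% were higher and 39.6% lower. GPD1, the osmotic stress counterpart of GPD2, had -1.66 ± 0.15, and GAS3, of the GAS5 family, had -1.26 ± 0.12. SIR2, the silencing deacetylase related to HST1, had -0.77 ± 0.16, and RPP2B, the paralog of RPP2A, had -0.056 ± 0.075. The Ras regulator IRA1 had 0.31 ± 0.051 beside 1.08 ± 0.073 for IRA2, and YLH47 had 0.21 ± 0.054 beside 2.01 ± 0.14 for its homologue MDM38. The exception was GPM3, whose homologue GPM2 had 1.63 ± 0.23. THI20 and THI21, which are close copies and may share signal, were nearest to each other with 1.15 ± 0.14 and 0.96 ± 0.26. PSK1 and NTG1 lie on I left, where 48 of 64 tested genes were lower with a median of -0.52, and without their pairs 10 of 11 members exceeded their relative, by a median of 0.76.

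**Figure D5:**
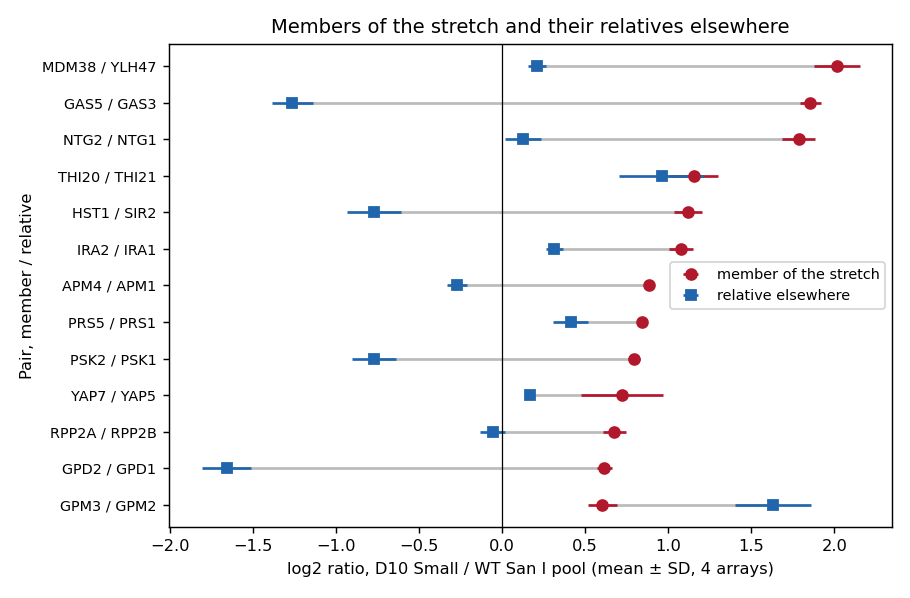
Mean log2 ratios with SD over the 4 arrays are shown for 13 members of the stretch (circles) and their relatives on other chromosomes (squares). The member lies to the right of its relative in 12 pairs, and GPM3 with GPM2 is the exception.

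Over 12 complexes, 44 partners encoded outside the stretch were tested, of which 20 were higher, 20 lower and 4 did not pass, with a median ratio of 0.046. These shares are near those over all tested genes, at 43.2% for higher and 39.6% for lower calls, and the median of all genes was 0.021. The member exceeded the median of its partners in 9 complexes, which again restates the choice of the stretch by its ratios. For the exosome, DIS3 stood at 0.40 ± 0.066 while 8 of 9 core subunits were lower, with RRP4 at -0.45 ± 0.019 and RRP45 at -0.83 ± 0.079. Of these subunits SKI6, RRP46 and MTR3 lie on VII right between YGR033 and YGR278, where the median was -0.62, and RRP43 on III right, with a median of -0.31. The other 5 subunits had a median of -0.40, with 4 lower and RRP40 higher at 0.34 ± 0.098.

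In the Smc5/6 complex, SMC5 had 0.98 ± 0.049, and its 7 partners lay between -0.33 and 0.27, with SMC6 at -0.19 ± 0.12. The mRNA export factor SAC3, which binds THP1, had -0.17 ± 0.043. In the Ndc80 complex all 3 partners of NUF2 were lower, with NDC80 at -0.15 ± 0.059, SPC24 at -0.29 ± 0.066 and SPC25 at -0.19 ± 0.058, so that NUF2, low within the stretch, was the highest of its complex. NAT3, the catalytic partner of MDM20, had 0.055 ± 0.047 and did not pass, a level within the SD of MDM20. For succinate dehydrogenase, SDH5 had 1.24 ± 0.15 and the subunits SDH1 to SDH4, all 4 higher, lay between 0.27 and 0.78. RTG3, which pairs with RTG1, was higher with 0.64 ± 0.064, and in TOR complex 2 LST8 (0.82 ± 0.063) and AVO2 (0.51 ± 0.090) exceeded AVO1. The other partners of AVO1, TOR2 (0.44 ± 0.036), BIT61 (0.091 ± 0.063) and TSC11 (-0.12 ± 0.044), lay below it.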

How the data were processed

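RNA was measured on 4 two-colour yeast oligonucleotide arrays. Labelling started from 250 ng of total RNA by linear T7 amplification, per the labels' protocols. How the pool was assembled is not stated. Per the file headers, the deposited scanner files hold linear intensity and local background for 6256 gene probes in 43792 of the 45220 spots. A net log2 ratio in these deposited files has its pool channel rescaled in an unstated way. The authors' value table has log2 ratios of unstated normalisation, and its array medians are -0.00029, -0.0057, -0.0012 and 0.0027. Set against the present ratios across genes, its columns gave r of 0.965 to 0.972 and slopes of 1.17 to 1.26, which settles direction and centre. The scanner software is not given in the sources at hand.

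Mean intensities were corrected with limma 3.58.1 (R 4.3.3) by normexp with an offset of 50, which draws dim ratios toward 0, and normalised by loess within arrays with controls at weight 0. Above background means a net signal over the mean plus 2.6 SD of the 153 negative controls, for at least 4 of a probe's 7 spots. Spots beyond their probe's quartiles by about 1.4 interquartile ranges were left out, 6.47% to 8.77% per array. Ratios were tested against 0 with lmFit and eBayes, adjusted by Benjamini-Hochberg over 5794 genes at 0.05, and the code was tested on simulated arrays. Symbols come from RefSeq's table of assembly R64, which holds 5756 of the 6256 probes' names and 57 of the 62 members'. No sequences are shown, and coordinates were not used because the files name no build. The number of arrays limits the precision, and p-values measure the spread between these cultures only.

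The members, gene groups, relatives and partners were chosen with earlier results of these data known. Values on each array are given for the 8 highest and 8 lowest tested members, the members at the ends and up to 3 of each group; YAP7 was added after its values were seen. The alternatives were other background corrections, median centring, loess without shifted arms, other filters, all spots, the authors' value table, the scanner's net log2 ratio, a minimum fold of 1.2 and leaving out each array.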

Additional observations from a re-analysis of the deposited data

Results flagged for a closer look

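Among 56 tested members and the stretch median, 3 genes had a single array set apart from the other 3 by Dixon's criterion for 4 values, which chance alone meets in about 1 of 20 groups. In each it was array 1, the brightest, and the part of brightness was not tested. CRT10 had 1.31 on array 1 against 1.02 to 1.05 on the others. SPE2 had 0.58 against 0.42 to 0.45. TOS7, the member at the centromere-side end, had 1.03 against 0.90 to 0.92. All 3 were positive on each array with or without array 1.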

How the results depend on the processing

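Over all tested genes the share called higher ran from 24.6% against a minimum fold of 1.2 to 45.1% in the authors' deposited ratios. The stretch, chosen on these same arrays, stayed higher under all 14 alternatives, with 48 to 54 members called higher. Its median ratio, 0.78, was 0.94 without background correction, 1.01 with plain subtraction and a floor of 10, 0.95 with median centring, 0.99 with the scanner's net ratio, 0.96 in the authors' deposited ratios and 0.73 with the 6 untested members included. In the same order, its excess over the other XV genes, 0.67, was 0.77, 0.82, 0.76, 0.88, 0.77 and 0.64. Members at least 2-fold higher, 17, numbered 29 with the floor, 26 in the authors' deposited ratios and 28 with those of the scanner, while the share over all tested genes, 6.20%, rose to 10.8%, 9.94% and 12.5%. Members called lower, 1, numbered 2 with the scanner's net ratio and 0 against a minimum fold of 1.2. Leaving out 1 array at a time gave 52 to 53 members higher, 15 to 18 at least 2-fold higher, medians from 0.78 to 0.80 and excesses from 0.66 to 0.68. Of 784 values of single members under alternatives, 759 kept direction and call, 15 lost the call, 2 gained it and 8 changed sign. The sign changes were of DSC2 (-0.30 with median centring, -0.0026 with loess without shifted arms, -0.0030 with all spots, -0.34 with the scanner's net ratio, and -0.0012 to 0.014 on leaving out single arrays) and MDM20 (-0.0063 with loess without shifted arms, -0.034 with the scanner's net ratio and -0.011 to 0.048 on leaving out single arrays), and neither had passed. NUF2 lost its call without replicate 2 (0.079) and without replicate 4 (0.099). The cause of these shifts was not tested. No paired analysis was possible because there is 1 group, set against the same pool on every array. Over all genes, calls numbered 2501 higher and 2292 lower, or 1425 and 1151 against a minimum fold of 1.2, and 2253 and 2530 with the scanner's net ratio.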
